A study of Mus musculus with 38 samples.

Results

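A set of 8 complement genes that act after the cascade has begun was followed across lung macrophages: the receptors C3ar1, C5ar1 and Vsig4, the membrane regulators Cd55, Cd59a and Cr1l, the soluble positive regulator Cfp, and the terminal component C6. They were chosen by name, with earlier results of these data known. Their symbols were matched to the Ensembl identifiers of the count table, where all 8 of 8 were found among 43346 gene identifiers. RNA sequencing covered 12 libraries from the lungs of naive C57Bl/6 mice of 8 to 10 weeks, 3 (replicates A, B and C) from each of 4 sorted populations.

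Interstitial macrophages were obtained by MerTK enrichment and sorted as live CD64+ CD11b+ cells negative for the lymphoid markers CD3, B220 and NK1.1 and for CD24, CD43, Siglec F and Ly6G. IM1 was the fraction with low MHCII and high CD206, IM2 had both markers high, and IM3 had high MHCII and low CD206. Alveolar macrophages (AM) were CD11c+ Siglec F+ cells negative for the same lymphoid markers and for CD103, CD11b and Gr1, and no MerTK enrichment is described for them. Lungs were perfused and digested with Liberase for 30 minutes before sorting. RNA came from about 50000 cells a population, and the labels do not give the sex of the mice. They also do not say whether replicates are separate animals or pools, so the p-values below measure only the spread between these libraries.

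Complement is a cascade of plasma and locally made proteins in which the classical, lectin and alternative routes converge on enzymes, the convertases, that cleave C3 and then C5. The small fragments C3a and C5a signal through G protein-coupled receptors on myeloid cells, the large fragment C3b coats particles for uptake by macrophages, and C5b begins the membrane attack complex with C6, C7, C8 and C9. Host cells carry membrane regulators that break down convertases or block the attack complex, and macrophages are a known source of several complement proteins outside the liver.

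The libraries held 11818981 to 15758326 reads assigned to genes, 71.06% to 77.6% of the mapped reads. Levels are given as CPM, the read count of a gene relative to the library's assigned reads after TMM scaling. IM1 replicate A was the shallowest library, and reads mapping to several places made up 14.78% of its reads against 11.8% and 11.98% in IM1 replicates B and C. Summed markers separated interstitial from AM libraries. The summed level of 8 alveolar macrophage genes was 178 to 589 CPM in interstitial libraries and 52163.9 to 58854.2 CPM in AM libraries. Most of the AM sum was Chil3, which averaged 51240.5 CPM there. Siglecf and Itgax of this list, and Itgam and Mrc1 of the interstitial list, encode gated proteins and check only the sort. The summed level of 6 interstitial macrophage genes was 9387.6 to 28145.9 CPM in interstitial libraries and 985 to 1048.4 CPM in AM libraries. Within that list Mrc1, the gene for the gated CD206, averaged 2146.3 CPM in IM1, 2201.8 in IM2, 745.5 in IM3 and 998.9 in AM, and was lower in IM3 than in AM (log2 -0.42 ± 0.13, edgeR adjusted p = 0.0113). The MHCII gate was not checked against its genes here.

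The 8 genes fell into 3 visible arrangements. C3ar1 was high in all 3 interstitial populations and nearly undetected in AM. Vsig4, Cd55, Cfp and C6 were high in IM1 and IM2 and far lower in IM3, and of these only Cfp was well detected in AM (323.9 CPM on average). C5ar1, Cd59a and Cr1l were detected in all 4 populations, with smaller differences. A gene was called in a comparison when its adjusted p (edgeR's quasi-likelihood test, Benjamini-Hochberg adjustment over 14095 genes) was under 0.05, and all 8 genes passed the filter on low counts.

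Against AM, 8 of 8 genes were called in IM1, all higher, where 58.8% of all genes tested were called in either direction. In IM2 over AM 6 of 8 were called, all higher, against 60.5% of all genes. In IM3 over AM 5 of 8 were called, 4 higher and 1 lower, against 57.4% of all genes. Called in either direction, 6 of 8 in IM2 and 5 of 8 in IM3 lay near those shares, and 8 of 8 in IM1 lay above its share. Called higher alone were 8, 6 and 4 of the 8 genes in IM1, IM2 and IM3 over AM. Over all genes these were 4666, 4838 and 4565 of 14095. The 8 genes were chosen with earlier results of these data known. Their counts here and the medians below therefore give no independent contrast with all genes and do not set the 8 genes apart. Among interstitial populations 1 of 8 was called in IM1 over IM2 (higher, with 1.71% of all genes called in either direction). In IM1 over IM3 6 of 8 were called (all higher, 24.4% of all genes) and in IM2 over IM3 5 of 8 (all higher, 11.4%). Genes called higher alone numbered 69, 1790 and 915 in these 3 comparisons. The 241 genes behind the share in IM1 over IM2 became 392 with the replicate letter as a block, 1925 without IM1 B, 120 without IM1 C, 106 without IM2 B and 124 without IM2 C, so that share is uncertain.

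The median log2 fold change of the 8 genes was 5.07 in IM1, 3.86 in IM2 and 1.03 in IM3 over AM, beside medians of 0.12, 0.11 and 0.09 over all genes tested. These 3 medians were the same when Cd55 and C6, which had 0 counts in AM, were set at their lower bounds. Between interstitial populations the median of the 8 genes was 0.25 in IM1 over IM2, 2.19 in IM1 over IM3 and 1.99 in IM2 over IM3, beside 0, 0.02 and 0 over all genes. The 3 comparisons with AM share the same AM libraries, and each pair of comparisons among interstitial populations shares 1 population.

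**Figure D1:**
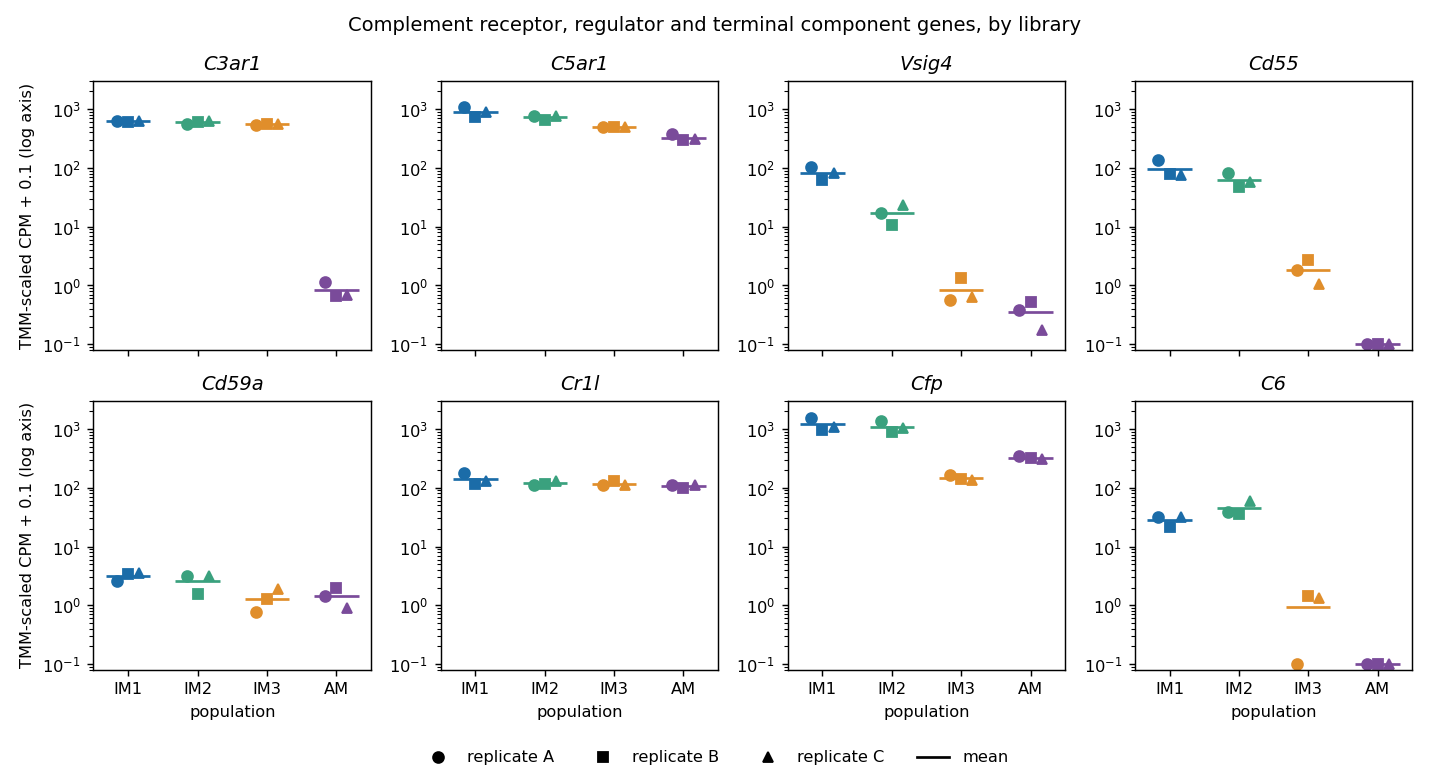
TMM-scaled CPM plus 0.1 on a log axis for each of the 8 genes in the 3 libraries (symbols by replicate) of IM1, IM2, IM3 and AM, with the mean as a line. C3ar1 separates all interstitial libraries (534 CPM and above) from AM (1.05 CPM and below), while Vsig4, Cd55, Cfp and C6 lie lower in every IM3 library than in every IM1 and IM2 library.

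C3ar1, on chromosome 6 (ENSMUSG00000040552, mm10 chr6:122847138-122856161, minus strand), encodes the receptor for the anaphylatoxin C3a. It was at 623, 610 and 616 CPM in IM1 replicates A, B and C, at 551, 605 and 629 CPM in IM2 and at 534, 548 and 566 CPM in IM3. In AM it was at 1.05, 0.561 and 0.589 CPM, from 15, 8 and 8 reads. Every interstitial library lay far above every AM library, with no overlap, and the interstitial populations lay close together. The log2 fold change over AM was 9.69 ± 0.20 (SE) in IM1, 9.64 ± 0.20 in IM2 and 9.53 ± 0.20 in IM3, with adjusted p of 2.55e-14, 2.7e-14 and 4.65e-14 by edgeR, which corresponds to 829-fold, 800-fold and 739-fold. Among the interstitial populations the log2 differences were 0.05 for IM1 over IM2 (95% interval -0.22 to 0.33), 0.17 for IM1 over IM3 (-0.11 to 0.44) and 0.12 for IM2 over IM3 (-0.16 to 0.39), and none was called. In bulk samples such as these, fewer cells with a transcript and less transcript per cell cannot be told apart.

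C5ar1, on chromosome 7 (ENSMUSG00000049130, chr7:16246743-16259540, minus strand), encodes the main signalling receptor for C5a. It was at 1102, 721 and 898 CPM in IM1, at 772, 662 and 777 CPM in IM2 and at 504, 490 and 492 CPM in IM3. AM libraries held 370, 299 and 316 CPM. All 9 interstitial libraries lay above all 3 AM libraries, IM1 and IM2 overlapped, and both lay wholly above IM3. The log2 fold change over AM was 1.47 ± 0.15 in IM1 (adjusted p 4.83e-07, edgeR), 1.17 ± 0.15 in IM2 (5.55e-06) and 0.59 ± 0.15 in IM3 (0.00274).

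C5ar1 was also higher in IM1 than in IM3 (log2 0.87 ± 0.15, edgeR adjusted p = 0.000436) and in IM2 than in IM3 (0.57 ± 0.15, 0.0169). The IM2 over IM3 call was lost when any of 5 libraries was left out. Without IM2 A, IM2 C, IM3 A, IM3 B or IM3 C the log2 difference was 0.54, 0.53, 0.59, 0.56 or 0.57, with edgeR adjusted p of 0.065, 0.0695, 0.0517, 0.0673 or 0.0628, within a range of 0.000822 to 0.0695 over all alternatives. IM1 over IM2 was 0.30 ± 0.15 (95% interval -0.01 to 0.61, adjusted p = 0.303) and passed only without IM1 B (0.44, adjusted p = 0.0447, range over alternatives 0.0447 to 0.748). By means, the order of levels was IM1, IM2, IM3 and then AM. In that order IM1 over IM2 was not called, and the call of IM2 over IM3 depended on single libraries.

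Vsig4, on the X chromosome (ENSMUSG00000044206, chrX:96247203-96293438, minus strand), encodes a receptor of the immunoglobulin superfamily, also called CRIg, by which resident tissue macrophages bind C3b and iC3b and which restrains the alternative pathway. IM1 libraries held 105, 61.4 and 83.2 CPM and IM2 libraries 16.8, 10.6 and 23 CPM. IM3 libraries held 0.463, 1.25 and 0.541 CPM and AM libraries 0.280, 0.421 and 0.0736 CPM, the AM values from 11 reads in all. The level descended in the order IM1, IM2, IM3, AM, with no overlap between any pair of populations.

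Vsig4 was the only one of the 8 genes called between IM1 and IM2, at a log2 difference of 2.30 ± 0.28 (edgeR adjusted p = 0.00041). IM1 was above IM3 by 6.80 ± 0.39 (1.01e-08) and IM2 above IM3 by 4.49 ± 0.39 (1.38e-06). Over AM the log2 fold change was 8.27 ± 0.45 in IM1 (2.71e-10) and 5.96 ± 0.47 in IM2 (1.96e-08). In IM3 over AM it was 1.47 ± 0.69, not called at an edgeR adjusted p of 0.0808 (range over alternatives 0.00646 to 0.332). That comparison was called without a filter on low counts (1.47, adjusted p = 0.00646) and by DESeq2 (1.51, adjusted p = 0.0189). It rests on 32 reads in IM3 and 11 in AM.

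Cd55, on chromosome 1 (ENSMUSG00000026399, chr1:130439027-130462744, minus strand), encodes decay-accelerating factor, which speeds the breakdown of C3 and C5 convertases on the cell's own membrane. IM1 libraries held 137, 79.8 and 74.3 CPM, IM2 libraries 83.2, 47.6 and 58.3 CPM, and IM3 libraries 1.72, 2.64 and 0.946 CPM. AM libraries held 0 reads each. IM1 and IM2 overlapped, IM3 lay far below both, and every IM3 library still held reads that AM lacked. Against a limit of 3 reads over the 3 AM libraries (0.0712 CPM), Cd55 was at least 1361-fold higher in IM1, 885-fold in IM2 and 24.8-fold in IM3, with edgeR adjusted p of 1.18e-09, 2.35e-09 and 0.000108. With any 1 library left out these bounds were 899.6 to 1519.7 for IM1, 585 to 994 for IM2 and 16.4 to 30.5 for IM3.

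Between interstitial populations Cd55 was higher in IM1 than in IM3 (log2 5.78 ± 0.37, edgeR adjusted p = 9.36e-08) and in IM2 than in IM3 (5.16 ± 0.36, 6.18e-07). IM1 over IM2 was 0.62 ± 0.27 and not called (adjusted p = 0.269, range over alternatives 0.0148 to 0.712), except without a filter on low counts (0.61, adjusted p = 0.0148). The antisense gene Gm16083 overlaps Cd55, and counting ignored strand, so reads of the pair cannot be told apart where they overlap and those over both genes were not counted. Gm16083 itself held 59 reads in all. The neighbouring paralog Cd55b averaged 5.58 ± 2.39 CPM in IM1, 4.26 ± 1.43 in IM2, 0.143 ± 0.147 in IM3 and 0 in AM (SD, n = 3), and reads shared by the paralogs were not counted.

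Cd59a, on chromosome 2 (ENSMUSG00000032679, chr2:104095801-104115354, plus strand), encodes the membrane protein that keeps C9 from completing the attack complex. It had the fewest reads of the 8 genes, 350 over all 12 libraries. IM1 libraries held 2.44, 3.31 and 3.44 CPM, IM2 libraries 3.08, 1.47 and 3.02 CPM, IM3 libraries 0.661, 1.17 and 1.76 CPM and AM libraries 1.33, 1.89 and 0.809 CPM. IM1 lay wholly above IM3 and AM, whereas IM2 overlapped every other population and IM3 overlapped AM.

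The log2 fold change of Cd59a was 1.19 ± 0.43 in IM1 over AM (edgeR adjusted p = 0.0258) and 1.36 ± 0.43 in IM1 over IM3 (0.0324). Neither call withstood the loss of single libraries. IM1 over AM was 1.13 without IM1 B, 1.10 without IM1 C, 1.18 without AM A and 0.93 without AM C, with edgeR adjusted p of 0.0555, 0.0691, 0.0648 and 0.105 and a range of 0.0151 to 0.105 over alternatives. IM1 over IM3 was 1.30 without IM1 B, 1.27 without IM1 C, 1.06 without IM3 A and 1.34 without IM3 B, with edgeR adjusted p of 0.0515, 0.0834, 0.124 and 0.0847 and a range of 0.0136 to 0.124. It also missed the threshold when only IM1 and IM3 entered the fit (1.36, adjusted p = 0.051).

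For IM2 over AM the Cd59a difference was 0.90 (95% interval -0.01 to 1.82, adjusted p = 0.082, range over alternatives 0.0349 to 0.254), and it was called without IM2 B (1.18, adjusted p = 0.0349) or AM B (1.23, adjusted p = 0.0492). IM2 over IM3 was 1.07 (95% interval 0.15 to 2.00, adjusted p = 0.146). IM3 over AM was -0.17 (95% interval -1.14 to 0.79, adjusted p = 0.769). IM1 over IM2 was 0.28 (95% interval -0.58 to 1.15, adjusted p = 0.74). The paralog Cd59b held 9 reads over all libraries.

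Cr1l, on chromosome 1 (ENSMUSG00000016481, chr1:195097382-195131586, minus strand), encodes Crry, the rodent membrane regulator that inhibits C3 convertases on most cells. IM1 libraries held 175, 113 and 128 CPM, IM2 libraries 111, 115 and 131 CPM, IM3 libraries 112, 130 and 112 CPM and AM libraries 111.0, 99.4 and 110.7 CPM. The means were 139 ± 32 CPM in IM1, 119 ± 11 in IM2, 118 ± 11 in IM3 and 107 ± 7 in AM (SD, n = 3 each). Interstitial populations overlapped one another, and all 9 of their libraries lay above AM, the lowest IM2 and IM3 libraries by less than 1 CPM.

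Only IM1 over AM was called for Cr1l, at a log2 fold change of 0.38 ± 0.15 (edgeR adjusted p = 0.0424). That call depended on IM1 replicate A, without which the log2 fold change was 0.18 (edgeR adjusted p = 0.227, range over alternatives 0.00681 to 0.227). It was also lost without AM A (0.40, adjusted p = 0.0699), AM B (0.33, 0.134) or AM C (0.40, 0.071), without a filter on low counts (0.37, 0.0518) and with only IM1 and AM in the fit (0.38, 0.0913). IM2 over AM was 0.15 (95% interval -0.17 to 0.47) and IM3 over AM 0.14 (-0.18 to 0.46). IM1 over IM2 was 0.22 (-0.10 to 0.54), IM1 over IM3 0.24 (-0.08 to 0.56) and IM2 over IM3 0.01 (-0.30 to 0.33).

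Cfp, on the X chromosome (ENSMUSG00000001128, chrX:20925454-20931555, minus strand), encodes properdin, the plasma protein made by leukocytes that stabilises the convertase of the alternative pathway. IM1 libraries held 1550.7, 946 and 1075.3 CPM and IM2 libraries 1358.0, 892 and 1045.9 CPM. IM3 libraries held 163, 142 and 134 CPM, and AM libraries 352, 317 and 303 CPM. IM1 and IM2 overlapped and lay wholly above AM, and AM lay wholly above IM3.

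Cfp was the 1 gene of the 8 called lower in an interstitial population than in AM. Its log2 fold change over AM was 1.88 ± 0.19 in IM1 (edgeR adjusted p = 4e-07) and 1.76 ± 0.19 in IM2 (7.77e-07), but -1.15 ± 0.19 in IM3 (7.01e-05), which is 0.451 times the AM level. It was higher in IM1 than in IM3 by 3.03 ± 0.20 (3.34e-08, 8.15-fold) and in IM2 than in IM3 by 2.91 ± 0.20 (1.4e-07, 7.52-fold). IM1 over IM2 was 0.12 ± 0.18 (95% interval -0.27 to 0.50, adjusted p = 0.765).

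C6, on chromosome 15 (ENSMUSG00000022181, chr15:4727175-4815456, plus strand), encodes the component that joins C5b at the start of the membrane attack complex. IM1 libraries held 31.9, 21.3 and 31.4 CPM and IM2 libraries 38.9, 35.4 and 59.2 CPM. IM3 libraries held 0, 1.32 and 1.22 CPM, from 0, 18 and 18 reads, and AM libraries held 0 reads each. All IM2 libraries lay above all IM1 libraries, and IM3 lay far below both. Of the 8 genes only C6 had a lower mean in IM1 than in IM2, but IM1 over IM2 was not called (log2 -0.66 ± 0.36, 95% interval -1.43 to 0.11, edgeR adjusted p = 0.35, range over alternatives 0.0252 to 0.741). Without a filter on low counts it was called (-0.67, adjusted p = 0.0252).

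C6 was higher in IM1 than in IM3 by 5.07 ± 0.50 on the log2 scale (edgeR adjusted p = 5.7e-06) and in IM2 than in IM3 by 5.73 ± 0.50 (3.77e-06). Without IM3 replicate A, the library with no C6 read, these differences were 4.46 and 5.13 (edgeR adjusted p of 3.16e-06 and 3.83e-06, ranges over alternatives up to 0.000128 and 0.000887). Against 3 reads over the AM libraries C6 was at least 395.8-fold higher in IM1, 625-fold in IM2 and 11.8-fold in IM3, with edgeR adjusted p of 1.27e-07, 4.93e-08 and 0.00482. With any 1 library left out these bounds were 262 to 444 for IM1, 413 to 688 for IM2 and 7.8 to 17.8 for IM3. A count of 0 over the AM libraries allows up to 3 reads, and such limits cover counting error only.

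**Figure D2:**
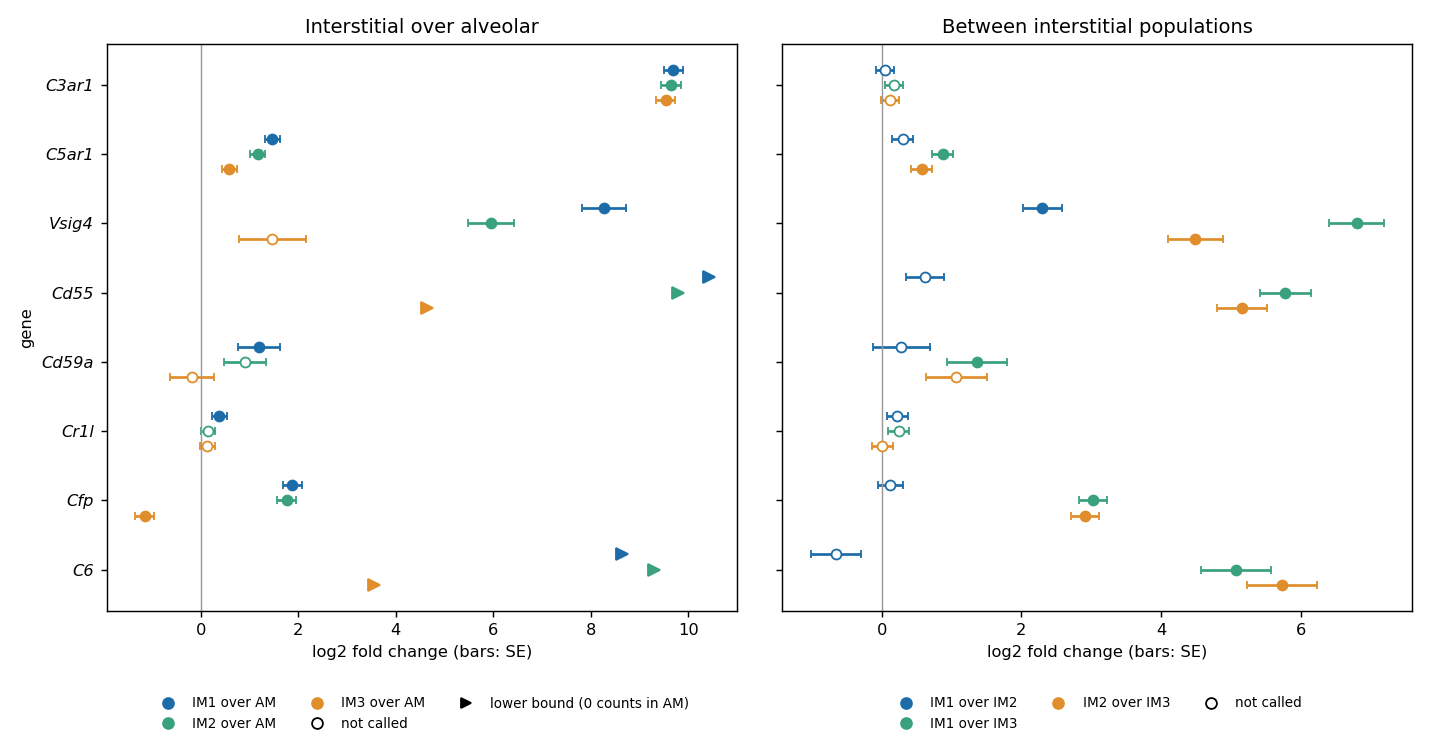
Log2 fold changes with SE bars for each of the 8 genes, interstitial populations over AM on the left and interstitial pairs on the right; filled points were called by edgeR, open points were not, and triangles are lower bounds where AM had 0 reads. In IM1 over IM3 and IM2 over IM3, on the right, Vsig4, Cd55, Cfp and C6 lie between 2.91 and 6.80, apart from the other 4 genes, which lie at 1.36 or below.

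Levels of different genes were compared per kilobase of exon (RPKM, on the same TMM scale). The ranks depend on the exon length given with the counts, 10349 bases for Cr1l, 4853 for Cd55 and 1484 for Vsig4. By CPM in IM1, Cr1l (138.9) stood above Cd55 (96.9) and Vsig4 (83.1). In IM1 the order of mean RPKM ran from Cfp (686) through C5ar1 (353), C3ar1 (143), Vsig4 (56.0), Cd55 (19.97), Cr1l (13.4) and C6 (6.98) to Cd59a (1.69). In IM2 the mean RPKM of C6 (11.02) stood next to those of Vsig4 (11.3), Cr1l (11.5) and Cd55 (12.99). In IM3 the order of mean RPKM was led by C5ar1 (193) and C3ar1 (128), followed by Cfp (84.2). In AM the mean RPKM of Cfp was 187 and of C5ar1 128, Cr1l followed at 10.3, and the other 5 genes were below 1.

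The arrangement of the 8 genes was compared by the root mean square difference of log2 CPM over the 12 libraries, each gene centred on its own mean, as a description. Among the 8 genes the closest pairs were C5ar1 and Cr1l (0.46 log2 units), C5ar1 and Cd59a (0.53) and Cr1l and Cd59a (0.67). Of the genes low in both IM3 and AM, Cd55 and C6 differed by 1.14, Vsig4 and Cd55 by 1.31 and Vsig4 and C6 by 1.39. Cfp was farther from these, at 2.2 from Vsig4, 2.69 from C6 and 2.99 from Cd55. It was nearer to Cd59a (0.88) and C5ar1 (0.93). C3ar1 was at least 2.40 from each of the other 7.

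Among all genes tested, those nearest to C3ar1 were Cpq (0.23), Rcsd1 (0.24) and Pdlim4 (0.30), each at 66.2 to 209 CPM on average in the interstitial populations and below 0.1 CPM in AM. Those nearest to Cd55 were Cbr2 (0.47), Fcna (0.50) and Timd4 (0.52). Sema6a, Slc7a13 and Cd209d were the 3 nearest genes of both Vsig4 (0.93, 0.95 and 0.97) and C6 (0.86, 0.95 and 0.78). The nearest genes of Cfp were Gprc5c (0.21), Ly6e (0.27) and Susd1 (0.35), all lower in IM3 than in AM by their means. For C5ar1 they were Tmem141 (0.10), Evi5 (0.10) and Crtap (0.12), for Cr1l Idnk (0.07), Cdk4 (0.08) and Wbp4 (0.08), and for Cd59a Klhl23 (0.28), Bid (0.35) and Slc46a3 (0.37). Small values for Cr1l and C5ar1 are easily reached by genes that vary little, so they are not comparable with those of Vsig4 and C6.

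Vsig4, Cd55, Cfp and C6 had the largest log2 differences of IM1 and IM2 over IM3, from 2.91 to 6.80. C5ar1 was also called higher in IM1 and IM2 than in IM3, by 0.87 and 0.57. Cfp differed from Vsig4, Cd55 and C6 in being well detected in AM. The promoters of Vsig4, Cd55, Cfp and C6 are shown for those larger differences. Each is the RefSeq window of 300 bases on GRCm38.p6 (250 before the start, 50 after), written 5′ to 3′ on the gene's strand: chrX:96293389-96293688 (minus) for Vsig4, chr1:130462695-130462994 (minus) for Cd55, chrX:20931506-20931805 (minus) for Cfp and chr15:4726960-4727259 (plus) for C6. Capitals mark matches, on either strand, to 4 short motifs. The core of PU.1-type ETS sites was searched as GAGGAA and the MAF half-site as TGCTGA. The TATA box was searched as TATAAA, and the C/EBP site as TTGCNNAA.
Vsig4: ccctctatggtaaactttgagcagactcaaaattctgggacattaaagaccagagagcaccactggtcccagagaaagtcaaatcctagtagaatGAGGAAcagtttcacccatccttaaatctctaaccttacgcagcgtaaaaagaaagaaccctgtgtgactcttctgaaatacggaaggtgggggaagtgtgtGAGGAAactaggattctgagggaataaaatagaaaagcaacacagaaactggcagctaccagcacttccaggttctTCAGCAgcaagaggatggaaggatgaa
Cd55: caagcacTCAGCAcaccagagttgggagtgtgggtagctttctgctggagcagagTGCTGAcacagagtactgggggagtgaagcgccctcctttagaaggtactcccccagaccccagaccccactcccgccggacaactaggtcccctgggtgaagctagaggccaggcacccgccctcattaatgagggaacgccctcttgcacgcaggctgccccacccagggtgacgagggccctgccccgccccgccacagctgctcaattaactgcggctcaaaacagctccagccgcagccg
Cfp: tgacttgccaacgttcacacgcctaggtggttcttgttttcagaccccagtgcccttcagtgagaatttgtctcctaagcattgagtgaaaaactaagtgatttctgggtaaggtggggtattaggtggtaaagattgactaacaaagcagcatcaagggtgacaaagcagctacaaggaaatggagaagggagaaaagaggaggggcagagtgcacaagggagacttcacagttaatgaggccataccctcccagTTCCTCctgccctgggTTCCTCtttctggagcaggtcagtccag
C6: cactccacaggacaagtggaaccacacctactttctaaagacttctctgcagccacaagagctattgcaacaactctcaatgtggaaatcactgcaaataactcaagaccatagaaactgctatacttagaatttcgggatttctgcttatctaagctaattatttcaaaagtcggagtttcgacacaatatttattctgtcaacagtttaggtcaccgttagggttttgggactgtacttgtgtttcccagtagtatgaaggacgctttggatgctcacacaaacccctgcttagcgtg

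The Vsig4 window held GAGGAA at 155 and 53 bases before the start and TGCTGA on the opposite strand 24 bases into the gene. The Cd55 window held TGCTGA at 195 bases before the start and, on the opposite strand, at 243. The Cfp window held GAGGAA on the opposite strand at 7 and 23 bases after the start, and the C6 window held none of the 4. No single motif was found in all 4 windows, no matches overlapped, and TTGCNNAA was in none of the 8 genes' windows. Of 32851 RefSeq mouse promoter windows of this length, 28.3% held GAGGAA, 10.8% TTGCNNAA, 19.5% TGCTGA and 13.6% TATAAA, so single matches are common, and they describe letters and not bound sites. The windows differed in base composition, with a GC content of 63.3% for Cd55, 49.0% for Cfp, 44.3% for Vsig4 and 41.7% for C6.

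The rest of the cascade was read from 42 other complement genes, of which 23 passed the filter on low counts. Over AM 15 were called higher and 5 lower in IM1, 16 and 4 in IM2, and 11 and 5 in IM3. Of all genes tested 58.8%, 60.5% and 57.4% were called there. IM1 over IM2 gave 0 higher and 1 lower, IM1 over IM3 11 and 3, and IM2 over IM3 9 and 2. The shares of all genes there were 1.71%, 24.4% and 11.4%. These counts include Itgam and Itgax, whose proteins were part of the sort. Their median log2 fold changes were 5.11, 5.2 and 1.3 in IM1, IM2 and IM3 over AM, or 5.11, 4.67 and 1.0 with 4 genes that had 0 reads in AM set at their lower bounds. Between interstitial populations the medians were -0.02 in IM1 over IM2, 0.67 in IM1 over IM3 and 0.51 in IM2 over IM3. The medians of all genes tested were 0.12, 0.11 and 0.09 over AM, and 0, 0.02 and 0 between interstitial populations, in the same orders.

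At the head of the classical route, C1qa, C1qb and C1qc, the chains of the recognition protein C1q, were abundant in every interstitial population and had 1, 2 and 1 reads in AM. C1qa averaged 2597.4 ± 195.3 CPM in IM1, 2492.3 ± 382.3 in IM2 and 2093.8 ± 169.4 in IM3 (SD, n = 3). C1qb averaged 6254.6 ± 2087.8, 4971.4 ± 701.9 and 4665.0 ± 307.3 CPM in those populations, and C1qc 5908.1 ± 1952.9, 4398.4 ± 723.4 and 3706.7 ± 233.5 CPM. Like C3ar1, the 3 chains were called higher in each interstitial population over AM. Of the interstitial pairs only C1qc in IM1 over IM3 was called (log2 0.67 ± 0.21, edgeR adjusted p = 0.0265).

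C4b, which encodes the mouse C4 protein cleaved by the classical and lectin routes, had the IM3-low arrangement. It averaged 934 ± 238 CPM in IM1, 1118.1 ± 82.0 in IM2, 24.6 ± 7.3 in IM3 and 15.8 ± 2.6 in AM, and was higher in IM1 than in IM3 by 5.25 ± 0.25 and in IM2 than in IM3 by 5.51 ± 0.25 (edgeR adjusted p of 1.6e-09 and 2.49e-09). Its near-identical copy C4a averaged 17.5 ± 3.5, 18.7 ± 1.0, 0.9753 ± 0.489 and 0.505 ± 0.330 CPM in IM1, IM2, IM3 and AM, and reads shared by the copies were not counted, so both levels are uncertain. C1ra, a C1 protease, averaged 25.2 ± 3.4, 28.04 ± 5.58, 9.85 ± 1.00 and 48.0 ± 1.7 CPM. It was lower in all 3 interstitial populations than in AM (log2 -0.93, -0.77 and -2.28, edgeR adjusted p of 0.00014, 0.000645 and 1.39e-08). It was also higher in IM1 and IM2 than in IM3 (1.35 ± 0.17 and 1.51 ± 0.17, edgeR adjusted p of 2.55e-05 and 1.78e-05).

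Fcna, which encodes ficolin-A of the lectin route, averaged 264.6 ± 131.1 CPM in IM1, 130.2 ± 53.4 in IM2, 5.61 ± 1.71 in IM3 and 0.427 ± 0.140 in AM (SD, n = 3). It was higher in IM1 than in IM3 by 5.56 ± 0.39 and in IM2 than in IM3 by 4.54 ± 0.38 (edgeR adjusted p of 6.6e-08 and 8.59e-07). C3, the central component, averaged 145 ± 66 CPM in IM1, 248 ± 30 in IM2, 82.9 ± 24.97 in IM3 and 286 ± 48 in AM. C3 was lower in IM1 and IM3 than in AM (log2 -0.98 and -1.79, edgeR adjusted p of 0.00548 and 4.33e-05), the opposite direction to its receptor C3ar1. In IM2 over AM it was -0.21 ± 0.27 (0.523). It was also higher in IM1 and IM2 than in IM3 (0.81 ± 0.27 and 1.58 ± 0.27, edgeR adjusted p of 0.0394 and 0.000935).

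Among soluble regulators, Serping1, which encodes the C1 inhibitor, averaged 21.5 ± 2.8 CPM in IM1, 21.3 ± 1.8 in IM2 and 25.6 ± 9.6 in IM3, with 0 reads in AM.

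Of the other membrane genes, C5ar2, the second C5a receptor, averaged 12.6 ± 3.1 CPM in IM1, 15.7 ± 2.1 in IM2, 11.03 ± 1.13 in IM3 and 9.33 ± 2.95 in AM, and was called only in IM2 over AM (log2 0.75 ± 0.23, edgeR adjusted p = 0.0113). Itgam, the alpha chain of complement receptor 3, is CD11b and was part of the sort, as was Itgax, the alpha chain of complement receptor 4 (CD11c), for AM. Itgam averaged 709.5 ± 129.4 CPM in IM1, 854.6 ± 125.2 in IM2, 794.7 ± 24.4 in IM3 and 9.72 ± 2.33 in AM, and Itgax 21.9 ± 9.8, 90.01 ± 20.87, 452 ± 50 and 905 ± 19 CPM. Their shared beta chain Itgb2 averaged 502 ± 33, 498 ± 37, 722 ± 9 and 3320.3 ± 93.0 CPM in the same order.

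Cd93, a phagocytic receptor once described as a C1q receptor, averaged 195.9 ± 19.97 CPM in IM1, 193.0 ± 21.5 in IM2, 114 ± 16 in IM3 and 12.2 ± 1.9 in AM. It was higher in IM1 and IM2 than in IM3 by 0.78 and 0.76 on the log2 scale (edgeR adjusted p of 0.000978 and 0.00209). C1qbp, a C1q-binding protein that resides mainly in mitochondria, averaged 53.05 ± 19.28, 39.6 ± 2.1, 50.1 ± 2.7 and 66.4 ± 1.4 CPM in IM1, IM2, IM3 and AM and was called only in IM2 over AM (-0.75, adjusted p = 0.0027).

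The other terminal components stood apart from C6. C7 averaged 5.44 ± 2.03 CPM in IM1, 10.13 ± 1.02 in IM2 and 14.4 ± 5.6 in IM3, with 0 reads in AM, and was lower in IM1 than in IM3 (log2 -1.39 ± 0.33, edgeR adjusted p = 0.00741), the reverse of C6. C8g, which encodes the gamma chain of C8, held 474 reads and averaged 2.002 ± 0.452 CPM in IM1, 3.21 ± 0.43 in IM2, 2.42 ± 0.38 in IM3 and 3.38 ± 0.67 in AM, called only as lower in IM1 than in AM (log2 -0.74 ± 0.30, adjusted p = 0.0446). C8a had 0 reads in all 12 libraries, and C8b and C9 had 1 read each. The gene for C5, Hc, held 32 reads in all. Transcripts of a full terminal set were therefore not detected in any of these populations at this depth.

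**Figure D3:**
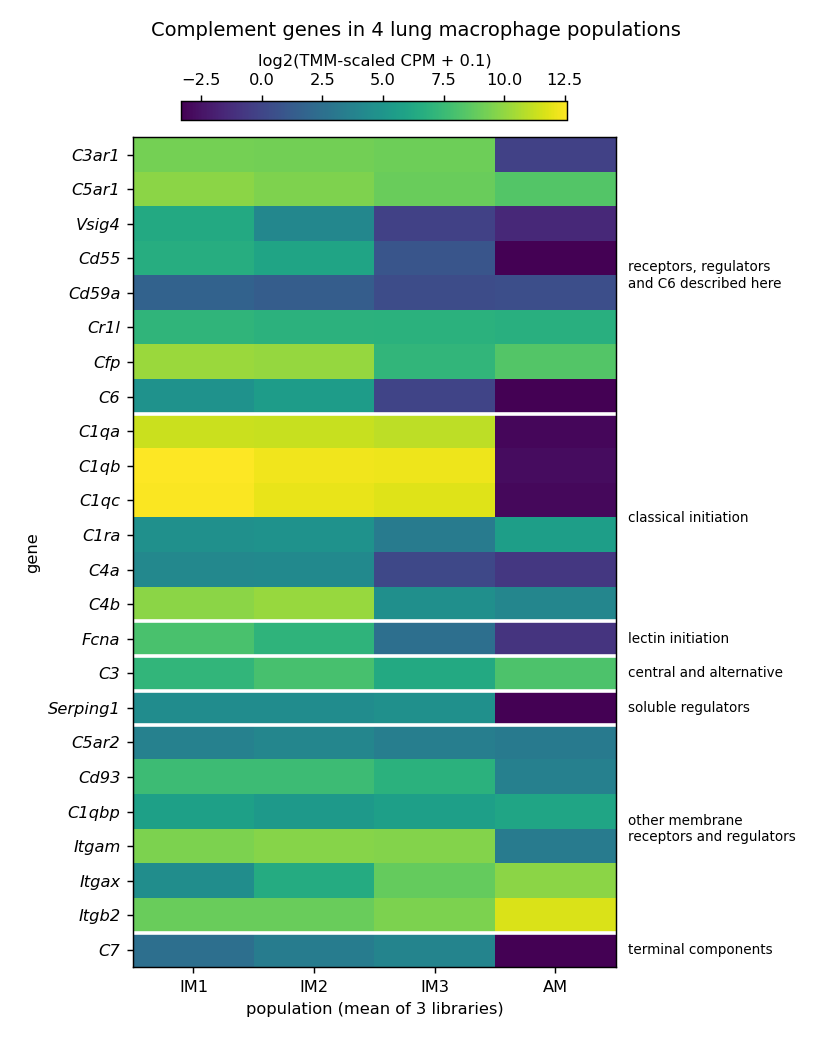
Mean level of each gene over 3 libraries as log2(TMM-scaled CPM + 0.1), for the 8 genes and for the other complement genes with at least 10 CPM in some population, grouped by role. Vsig4, Cd55, Cfp and C6 share their darker IM3 column relative to IM1 and IM2 with C4a, C4b and Fcna. C1ra, C3 and Cd93 are also lower in IM3 than in IM1 and IM2, by smaller differences. C3ar1 resembles C1qa, C1qb and C1qc, bright in all 3 interstitial columns and dark in AM.

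Markers of other cell types moved with some of these results. Of 6 fibroblast genes the sum was 34.2 to 103 CPM in IM1, 86.5 to 111 in IM2, 58.9 to 102 in IM3 and 0 to 0.350 in AM, where 5 of 6 were at 0. Within that list Dcn was higher in IM1 and IM2 than in IM3 (log2 2.54 ± 0.37 and 2.72 ± 0.37, edgeR adjusted p = 0.000209 each), as C6 was, and Pdgfra was lower in IM1 than in IM3 (-1.26 ± 0.41, 0.0373), with -0.92 ± 0.41 in IM2 over IM3 (0.19). The other 4 were not called between these populations. In IM1 over IM3 and IM2 over IM3 they were at -0.30 and 0.32 for Col3a1, -1.05 and 0.16 for Col1a1, -0.49 and 0.09 for Col1a2 and 1.39 and 1.16 for Lum. Of 4 mesothelial genes the sum was 0.530 to 3.32 CPM in IM1, 1.45 to 1.89 in IM2, 0.132 to 0.811 in IM3 and 0.140 to 0.350 in AM. Wt1 was at 0 in IM1 and AM, Msln at 0 in IM3, and Upk3b and Lrrn4 at 0 in AM. Pdgfra averaged 6.11, 7.755, 14.75 and 0.117 CPM in IM1, IM2, IM3 and AM, in the same order of populations as C7. C7 and Serping1 had 0 reads in AM, as 5 of the 6 fibroblast genes did. The part of either list in the C6, C7 and Serping1 results was not tested.

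Of 6 dendritic cell genes the sum was 91.2 to 119 CPM in IM1, 109 to 124 in IM2, 27.2 to 48.1 in IM3 and 3.57 to 5.74 in AM. In IM1 and IM2 it was led by Cd209a and Zbtb46. Cd209a was higher in IM1 and IM2 than in IM3 by 3.75 and 3.84 on the log2 scale, and Zbtb46 by 1.84 and 1.82. Flt3 and Clec9a were instead lower in IM1 than in IM3 (log2 -2.69 ± 0.52 and -2.11 ± 0.49, edgeR adjusted p of 0.00126 and 0.00519). In IM2 over IM3 Flt3 and Clec9a were at -1.51 and -1.35, not called. Ccr7 was at -1.99 in IM1 over IM3 and 0.11 in IM2 over IM3, not called. Xcr1 averaged 0.233, 0.318 and 0.426 CPM in IM1, IM2 and IM3. Of 4 classical monocyte genes the sum was 47.7 to 87.4 CPM in IM1, 333 to 585 in IM2, 1055.1 to 1262.0 in IM3 and 11.8 to 16.1 in AM, nearly all of it Ccr2. Of 5 T cell genes the sum was 219 to 4334.7 CPM in IM1, 158 to 1235.4 in IM2, 50.3 to 712 in IM3 and 0.07 to 0.14 in AM. That sum came from Cd4 and, in single libraries (up to 4195.8 CPM, in IM1 A), from Trac, while Cd3e held 3 reads and Cd8a 0 over all libraries.

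Of 6 epithelial genes the sum was 19.7 to 31.95 CPM in IM1, 16.04 to 49.9 in IM2, 7.77 to 17.99 in IM3 and 155 to 177 in AM, where Cdh1 and Epcam averaged 91.3 and 72.1 CPM, and Scgb1a1 alone was higher in IM1 and IM2 than in IM3 by 2.46 ± 0.37 and 1.95 ± 0.37 (edgeR adjusted p of 0.000131 and 0.00188). Of 5 endothelial genes the sum was 34.8 to 97.9 CPM in IM1, 36.3 to 48.7 in IM2, 27.7 to 48.8 in IM3 and 101 to 118 in AM, where it was all Vwf and Cdh5, Cldn5, Kdr and Tie1 were at 0, as Cd55 and C6 were. Of these 5, Cldn5 alone was called between interstitial populations, higher in IM1 than in IM3 (log2 1.23 ± 0.30, edgeR adjusted p = 0.00992). Of 4 platelet genes the sum was 4.80 to 6.43 CPM in IM1, 5.67 to 7.52 in IM2, 4.91 to 7.17 in IM3 and 0.0736 to 0.561 in AM, where Ppbp was at 0. The sums of neutrophil, mast cell, B cell and NK cell genes were at most 12.6 CPM in any library. The part of these lists in the differences of Vsig4, Cd55, Cfp and C6 was not tested.

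**Figure D4:**
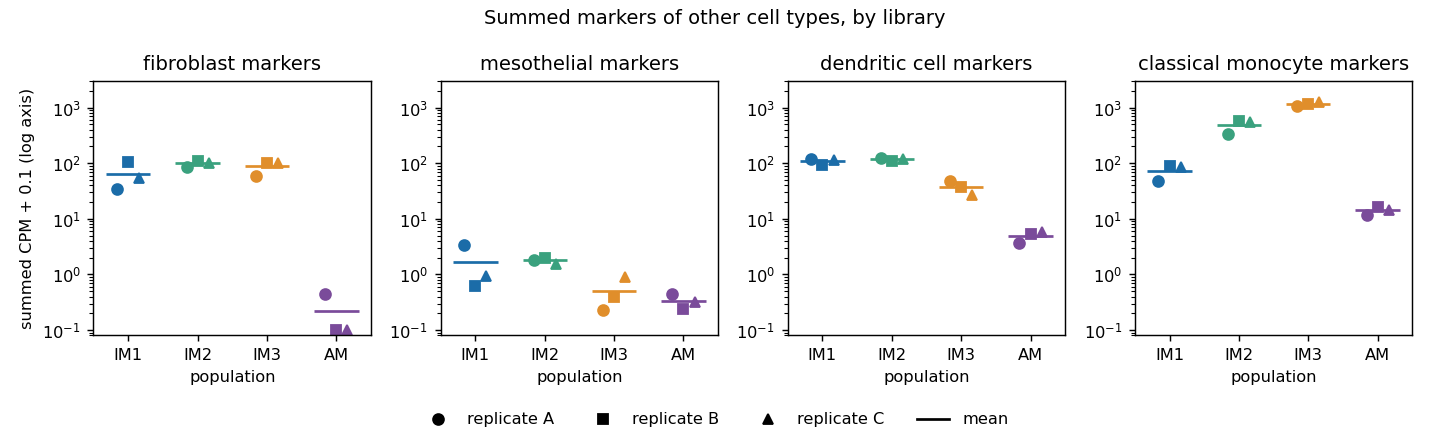
Summed CPM plus 0.1 on a log axis for marker genes of fibroblasts, mesothelial cells, dendritic cells and classical monocytes in each library, with group means as lines. Fibroblast sums are 34.2 to 111 CPM in the interstitial libraries, lowest in IM1 A, and near 0 in AM, dendritic cell sums are lower in IM3 than in IM1 and IM2, and monocyte sums are highest in IM3.

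IM1 replicate A had the highest CPM of the 3 IM1 libraries for C3ar1, C5ar1, Vsig4, Cd55, Cr1l, Cfp and C6. Without it the IM1 over IM3 log2 differences were 0.71 for C5ar1, 6.60 for Vsig4, 5.45 for Cd55, 2.79 for Cfp and 4.97 for C6, all still called, and Vsig4 in IM1 over IM2 was 2.10 (edgeR adjusted p = 0.000446, range over alternatives up to 0.00631). The Cr1l call over AM was the only call among the 8 genes lost without it.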

How the data were processed

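RNA was measured in 12 libraries, sequenced in 38 runs. The deposited values are raw counts per gene and run, which per the file headers came from featureCounts 1.5.0-p1 without strand on Ensembl 78 models of mm10, leaving out reads that mapped to several places or genes. Per the submitters' processing notes, STAR 2.5.1b, Subread 1.5.0-p1, DESeq2 1.8.1 and R 3.2.0 are named with no role. Per the labels' protocols, 2 ng of RNA was amplified with SMART-Seq v4 and sequenced on Ion Proton, so reads carry no molecular identifiers and limits from counts cover counting error only. Counting ignored strand, so reads over 2 genes on opposite strands were among those left out.

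Runs were summed per library, and the sums equalled the deposited counts per library (0 cells differing). Symbols came from GENCODE M21 (42462 of 43346 identifiers, 98.0%). Counts were fitted with edgeR 4.0.16 (R 4.3.3): TMM scaling, filterByExpr with a minimum count of 10 (14095 genes), robust quasi-likelihood F tests, two-sided, all 12 libraries, population as the only term, Benjamini-Hochberg adjustment over all genes tested. The fit was also run on simulated data in which 200 genes changed, in IM1 only, and all genes had the same dispersion. Far more genes were called against AM in the real libraries, so that run does not test the scaling or spread under such differences. Standard errors were derived from the same fit, as the absolute log2 fold change divided by the square root of its F statistic. The 95% intervals are symmetric t intervals built on these derived errors. Library depth was 11818981 to 15758326 assigned reads.

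The 8 genes and all gene lists were chosen with earlier results of these data known. All 8 are named. Of the other complement genes, those with a mean of at least 10 CPM in any population are named, and C1rb, Cd55b, Cd59b, C8g, C8a, C8b, C9 and Hc were added after their values were seen. A gene of that list is not reported here, and the list's counts and medians leave it out. The 3 genes of smallest root mean square difference of centred log2 CPM (prior count 2) are named for each. Alternatives were RLE and upper-quartile scaling, no filter, DESeq2 1.42.0, a replicate block, only the compared populations in the fit, and leaving out each library. Deviations from group means of libraries with the same letter correlated above 0.1 in all 3 pairs of IM1 with IM2 (0.166 to 0.292) and of IM2 with IM3 (0.143 to 0.189), where the letters were taken as pairing. They did not in all pairs of IM1 with IM3 or of any interstitial population with AM. This pairing is read from the data, since the labels do not say what a letter marks. It entered only the replicate block alternative, and the main tests reported are unpaired. Promoters are from RefSeq (GRCm38.p6).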

Additional observations from a re-analysis of the deposited data

Results flagged for a closer look

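Of the 8 genes, 1 differed between IM1 and IM2, 6 between IM1 and IM3 and 5 between IM2 and IM3 by edgeR's test of the difference itself, where 1.71%, 24.4% and 11.4% of all genes were called, and each is listed as a difference between populations sorted from the same tissue. Between IM1 and IM2 this was Vsig4, higher in IM1 by 2.30 on the log2 scale. Between IM1 and IM3 the log2 differences were 6.80 for Vsig4, 5.78 for Cd55, 5.07 for C6, 3.03 for Cfp, 1.36 for Cd59a and 0.87 for C5ar1, all higher in IM1. Between IM2 and IM3 they were 5.73 for C6, 5.16 for Cd55, 4.49 for Vsig4, 2.91 for Cfp and 0.57 for C5ar1, all higher in IM2. The Cd59a difference and the C5ar1 difference between IM2 and IM3 were lost when single libraries were left out.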

How the results depend on the processing

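Over the 48 fitted values of the 8 genes, 281 of 288 values under another setting kept their direction and call, 3 lost the call, 4 gained it and 0 changed direction. With 1 library left out 260 of 288 kept both, 17 lost the call, 3 gained it and 8 changed direction. With 1 library left out Cd59a in IM3 over AM ranged from -0.56 to 0.16, Cfp in IM1 over IM2 from -0.12 to 0.30, C3ar1 in IM1 over IM2 from 0 to 0.09 and Cr1l in IM2 over IM3 from -0.06 to 0.09. The changes of direction were all in values that were not called: Cd59a in IM3 over AM (0.13 without IM3 A, 0.16 without AM B), Cfp in IM1 over IM2 (-0.12 without IM1 A, -0.02 without IM2 B), C3ar1 in IM1 over IM2 (0 without IM2 A) and Cr1l in IM2 over IM3 (-0.06 without IM2 C, -0.02 without IM3 A or IM3 C). The number of the 8 genes called in IM1 over IM2 was 3 without a filter on low counts. With 1 library left out the numbers called were 6 to 7 in IM1 over AM, 6 to 7 in IM2 over AM, 5 to 5 in IM3 over AM, 1 to 2 in IM1 over IM2, 5 to 6 in IM1 over IM3 and 4 to 5 in IM2 over IM3.

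Over all genes, IM1 over IM2 gave 941 calls without the filter, 591 by DESeq2, 392 with the replicate block and 66 with only these populations in the fit, against 241, and IM1 over IM3 gave 2269 with only these populations, against 3445. Such fits gave fewer calls also in IM1 over AM (7469 against 8291) and more in the other 3: 9199 in IM2 over AM (against 8529), 9183 in IM3 over AM (8094) and 2161 in IM2 over IM3 (1611). With 1 library left out the counts were 7495 to 8444 in IM1 over AM, 7598 to 8050 in IM2 over AM, 7155 to 7428 in IM3 over AM, 106 to 1925 in IM1 over IM2, 2449 to 4680 in IM1 over IM3 and 1148 to 1358 in IM2 over IM3. The cause was not tested. The replicate block changed no call among the 8 genes. Upper-quartile scaling put the median of all genes at 0.18, 0.14 and 0.12 in IM1, IM2 and IM3 over AM, against 0.12, 0.11 and 0.09.

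Depth limits Cd59a and the low values of Vsig4 and C6 in IM3, which rest on few reads. With 3 libraries a population the Cr1l and Cd59a calls stood near the threshold.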
